A study of Mus musculus with 12 samples.

Results

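The 20S and 26S proteasome genes of mouse primary hepatocytes are described here across 12 RNA-seq libraries. The members are the genes whose symbol begins with Psma, Psmb, Psmc, Psmd, Psme, Psmf or Psmg followed by a digit, without the immunoproteasome genes Psmb8, Psmb9 and Psmb10. The pattern found 47 of the 16728 genes listed, and 45 of the 47 had enough reads to be tested. Psmb11 and Psme2b did not. Psmc3ip also matches the pattern, although its product is a meiotic recombination factor and not a subunit. The hepatocytes came from livers of Fxr-/- mice (KO) or wild-type mice (WT), all labelled C57BL/6. Cells were kept in DMEM with 10% serum and received FAC or AC, each at 100 µM for 24 h. The 4 groups were KO FAC, KO AC, WT FAC and WT AC with 3 libraries each, numbered 4 to 6 under FAC and 1 to 3 under AC. FAC and AC appear only as abbreviations in the labels, and the series title names iron overload. The cells are primary cultures, and no driver, clone or pooling of animals is stated. Separate animals or cultures are not stated for the libraries of a group either, so the p-values cover no more than the variation among these libraries, which may be technical.

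The proteasome is the main protease for ubiquitin-tagged proteins in the cytosol and nucleus. Its 20S core is a barrel of outer alpha rings, which gate the entrance, and inner beta rings, which hold the catalytic sites. The 19S particle caps the barrel, recognises and removes ubiquitin, and unfolds the substrate with a ring of ATPases. Other caps (PA28, PA200) open the core without ubiquitin, and dedicated chaperones build the rings. When proteasome activity falls, the transcription factor encoded by Nfe2l1, often called NRF1, is known to raise most subunit genes together through antioxidant response elements in their promoters. Fxr, encoded by Nr1h4, is a nuclear receptor for bile acids.

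Library totals ranged from 16464494 to 18335700 estimated reads, and the 47 genes took 0.773% to 0.866% of them. Nr1h4 had 3.54, 4.45 and 4.89 CPM (counts scaled to library size with TMM factors) in KO FAC and 9.35, 6.97 and 7.45 in KO AC. It had 7, 6.95 and 7.69 CPM in WT FAC and 13.0, 15.6 and 13.1 in WT AC. Nr1h4 was thus lower in KO than in WT under the same treatment without overlap, and it was still read in KO cells; the deleted exons are not given in the sources used here. Libraries of a group differed by more than sampling noise, with a chi-square of 3.2 to 34.4 per gene where noise alone gives about 1. The KO libraries stood furthest apart, with 34.4 between KO FAC 4 and KO FAC 6 and 21.4 between KO AC 1 and KO AC 3. Summed FPKM of the 8 hepatocyte markers was 16507 to 17507 in KO FAC, 13452 to 14276 in KO AC, 17339 to 18332 in WT FAC and 12924 to 13237 in WT AC. Alb made up most of that sum, and single markers moved more: 6 of the 8 were called higher in KO and 1 (Alb) lower under each treatment, with a median log2 fold change of 1.19 under FAC and 1.43 under AC. With FAC 7 were called higher in KO, and 5 higher and 1 lower in WT. Cyp2e1 had 727 to 783 FPKM in KO FAC and 443 to 480 in KO AC, against 83.0 to 108 in WT FAC and 73.0 to 80.2 in WT AC. Their part in the results on the members was not tested.

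Nearly all members were well expressed, and the core genes lay within a narrow band. Levels between genes are compared as FPKM, which is scaled for gene length. The 20S alpha genes Psma1 to Psma7 had means over the 12 libraries between 146 (Psma1) and 271 FPKM (Psma7). The beta genes Psmb1 to Psmb7 lay between 175 (Psmb2) and 323 FPKM (Psmb5). The catalytic beta genes are Psmb5 (chymotrypsin-like site), Psmb7 (trypsin-like site, 266 FPKM) and Psmb6 (caspase-like site, 194 FPKM). The 6 ATPase genes of the 19S base, Psmc1 to Psmc6, ranged from 91.6 (Psmc5) to 181 FPKM (Psmc1), a ratio of 1.98. The other 19S genes ranged from 84.6 (Psmd3) to 232 FPKM (Psmd11), apart from Psmd8.

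Psmd8, a lid subunit, stood above every other member with a mean of 943 FPKM. Its libraries held 986, 1030 and 974 FPKM in KO FAC, 1029, 981 and 945 in KO AC, 902, 918 and 899 in WT FAC and 844, 916 and 894 in WT AC. Even its lowest library, at 844 FPKM, was above the highest library of any other member, which was 360 FPKM for the beta gene Psmb3. Psmd8 rested on 19773 to 25028 reads per library.

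Most genes of the other caps, the inhibitor and the chaperones had lower levels, with Psme2, Psme1 and Psmd5 within the range of the core and 19S genes. Psme2 (196 FPKM) and Psme1 (122 FPKM) encode the PA28 cap that interferon induces, and Psme3 (62.3 FPKM) encodes the nuclear form of PA28. Psme4, the gene of the large nuclear activator PA200, averaged 28.5 FPKM, and Psmf1, the gene of the 20S-binding protein PI31, averaged 13.4 FPKM. Of the assembly chaperones, Psmd5 had 107 FPKM and the others had 10.4 (Psmd9) to 44.2 FPKM (Psmd10). Psma8, an alpha subunit of male germ cells, averaged 0.592 FPKM, and Psmb11, the beta subunit of thymic epithelium, averaged 0.005 FPKM from 5 reads in all.

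**Figure D1:**
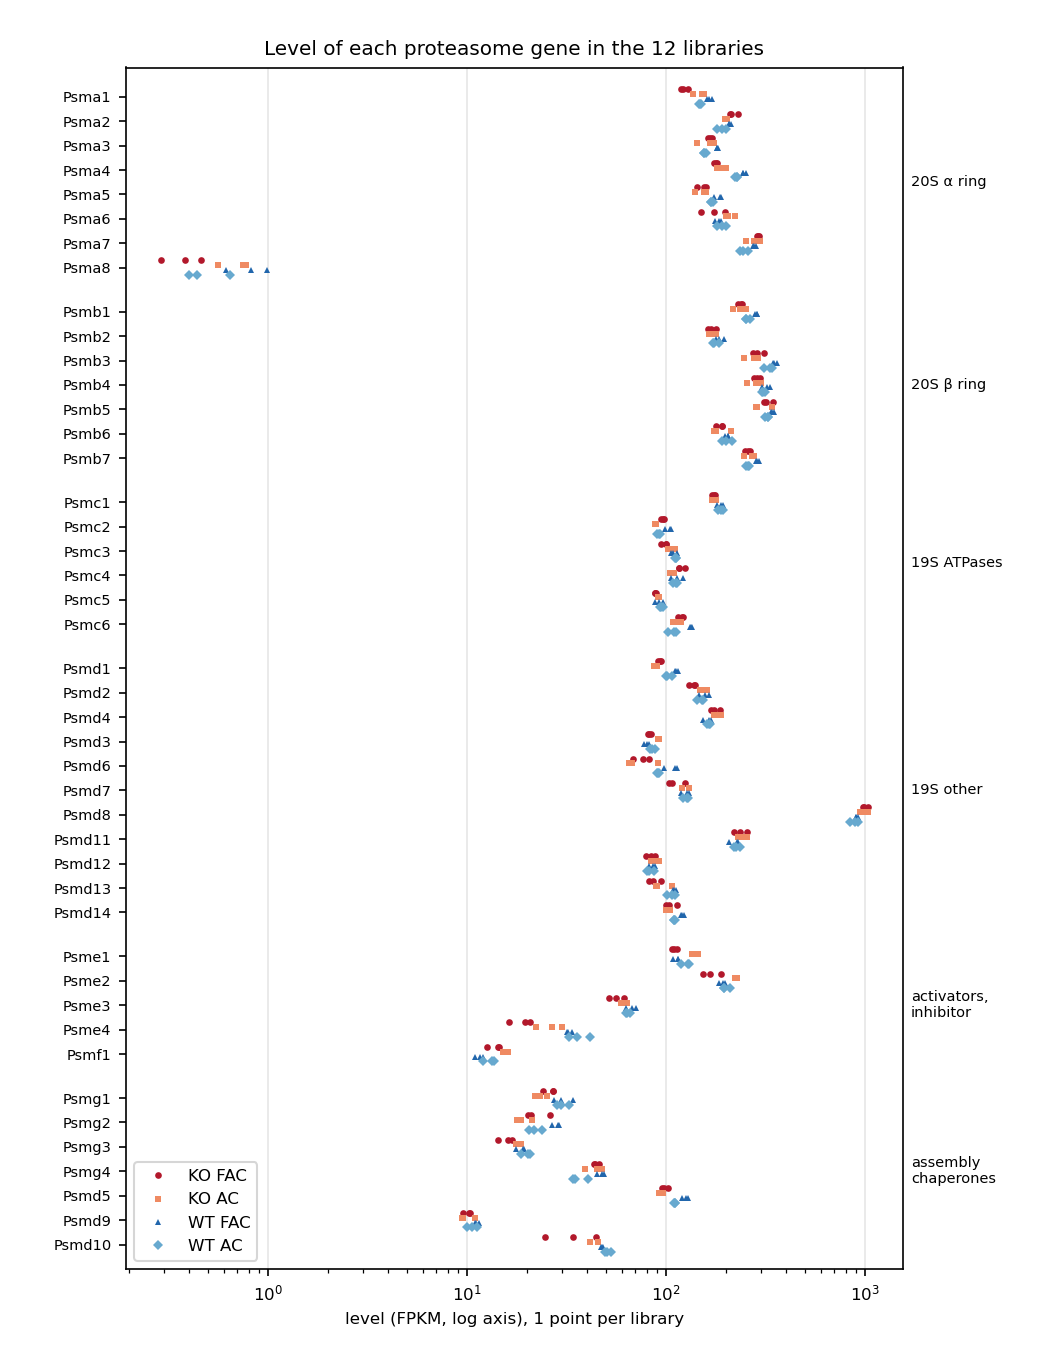
Level of 44 proteasome genes (FPKM, log axis) with 1 point per library, in the order KO FAC, KO AC, WT FAC, WT AC from top to bottom within each gene. Psmd8 lies alone near 943 FPKM and Psma8 alone below 1 FPKM; Psmb11, Psme2b and Psmc3ip are not drawn.

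Replicates of most members were close to each other. The median SD of log2 CPM over the 45 tested members was 0.08 in KO FAC, 0.08 in KO AC, 0.05 in WT FAC and 0.06 in WT AC. Psmd10, whose product gankyrin is a chaperone of the 19S base, varied most among the well-expressed members, with 63.4, 48.1 and 33.7 CPM in KO FAC. It had 60.5, 60.7 and 53.8 CPM in KO AC, 60.1, 60.8 and 62.1 in WT FAC and 60.2, 67 and 63.1 in WT AC. The low values were thus those of KO FAC 5 and KO FAC 6. Psma6 had the same order in KO FAC, with 185, 160 and 135 CPM.

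Promoters of the members were searched for the core of the antioxidant response element, TGACNNNGC on either strand, because this is the site through which subunit genes are known to be raised together. RefSeq windows of GRCm38.p6, from 250 bases before to 50 bases after the start of transcription, were found for 39 member genes in 42 windows. Of these windows, 6 (14.3%) held the core, against 12.4% of all 32851 windows. The 4 windows below are all among the 6 with the core. They belong to the catalytic genes Psmb5 and Psmb6, and to Psmc6 and Psme4. Psmc6 had the smallest p with FAC in WT, and Psme4 had the smallest by genotype under FAC. The catalytic gene Psmb7 was not among the genes with the core. Capitals mark the match, and positions count from the start that each window uses. RefSeq places the first base of Psmb6 further upstream, at chr11:70525324, so by that start its match lies inside the gene. Of the 42 windows, 35 had their first transcribed bases in a transcript of the gene from the GENCODE annotation. On the strand of the gene it reads TGACGTCGC at bases -47 to -39 from the start of Psmb5 (chr14:54617946-54618245, minus strand) and TGACGGAGC at -9 to -1 of Psmb6 (chr11:70525107-70525406, plus strand). On the opposite strand it reads TGACTTAGC at -227 to -219 of Psmc6 (chr14:45329574-45329873, plus strand) and TGACGCTGC at -7 to 2 of Psme4 (chr11:30771525-30771824, plus strand).
Psmb5: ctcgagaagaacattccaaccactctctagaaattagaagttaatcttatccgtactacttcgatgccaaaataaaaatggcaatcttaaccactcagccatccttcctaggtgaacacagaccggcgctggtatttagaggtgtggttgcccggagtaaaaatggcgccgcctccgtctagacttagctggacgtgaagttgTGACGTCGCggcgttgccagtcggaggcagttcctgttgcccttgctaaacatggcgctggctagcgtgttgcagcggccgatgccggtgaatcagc
Psmb6: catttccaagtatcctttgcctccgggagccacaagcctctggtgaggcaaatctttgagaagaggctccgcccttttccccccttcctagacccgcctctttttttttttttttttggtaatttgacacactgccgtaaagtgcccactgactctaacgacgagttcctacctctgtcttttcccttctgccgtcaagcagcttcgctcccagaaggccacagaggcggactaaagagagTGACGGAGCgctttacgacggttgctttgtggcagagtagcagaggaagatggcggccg
Psmc6: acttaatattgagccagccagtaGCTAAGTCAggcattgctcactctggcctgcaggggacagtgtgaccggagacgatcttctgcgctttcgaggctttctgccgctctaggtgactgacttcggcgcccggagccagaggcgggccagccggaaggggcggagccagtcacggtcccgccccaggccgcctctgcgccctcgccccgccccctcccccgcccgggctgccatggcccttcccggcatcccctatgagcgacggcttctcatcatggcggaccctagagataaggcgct
Psme4: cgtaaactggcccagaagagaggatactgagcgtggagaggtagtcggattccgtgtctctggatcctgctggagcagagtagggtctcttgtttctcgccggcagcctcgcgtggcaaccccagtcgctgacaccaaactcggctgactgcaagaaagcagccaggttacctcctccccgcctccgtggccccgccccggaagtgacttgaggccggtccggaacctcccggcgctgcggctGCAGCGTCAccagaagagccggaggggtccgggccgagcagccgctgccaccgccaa
A match is a description of these letters and not a binding site. The other members with the core were Psmd12 and Psmd9.

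The same windows were searched for 3 other motifs on both strands. For no motif was the share over windows of expressed genes alone computed. The CCAAT box (CCAAT) was in 33.3% of the 42 windows, against 37.4% of all windows. The Ets site CCGGAAGT was in 10 windows (23.8%) of 9 genes, among them Psmc1, Psmc2, Psmd6, Psmd13 and Psme4, against 3.89% of all windows. The GC-rich palindrome of nuclear respiratory factor, a protein unrelated to the product of Nfe2l1, was in 7 windows (16.7%), among them Psma2, Psma3, Psma4 and Psmc4, against 4.60% of all windows.

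In WT cells a group of subunit and chaperone genes was called higher with FAC by small factors, and none of the members was called lower. The excess over the share of all genes was lost without certain single WT libraries, as given below. With edgeR's quasi-likelihood test 9 of 45 members were called higher (20%), where 8.7% of all tested genes were, and 0 were called lower, where 8.55% of all tested genes were. The folds of the 9 were 1.14 to 1.35. At an unadjusted p under 0.05, 17 members were higher and 0 lower (31.3% of all tested genes passed that level in either direction), and DESeq2 called 0 lower. Over all 45 members the median log2 fold change was 0.11, against -0.00 over all tested genes, and 36 members lay above 0. The libraries of WT FAC lay entirely above those of WT AC for 19 members and entirely below for 0, where 21.6% of all tested genes did so in each direction.

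Psmc6, an ATPase of the 19S ring, had 185, 186 and 188 CPM in WT FAC, against 149, 141 and 149 CPM in WT AC. Every WT FAC library was above every WT AC library, and the log2 fold change was 0.35 ± 0.06 (SE, n = 3 each; edgeR adjusted p = 0.00130). Psmg4, a chaperone of the alpha ring, had 18, 19.3 and 19 CPM in WT FAC, against 12.9, 13.3 and 15.5 CPM in WT AC (0.43 ± 0.10, edgeR adjusted p = 0.0116). Psmg2, another chaperone of that ring, had 26.0, 24.1 and 25.7 CPM in WT FAC and 18.6, 21.2 and 17.8 CPM in WT AC (0.40 ± 0.11, edgeR adjusted p = 0.0277). The groups of neither chaperone overlapped. Psmd5, a chaperone of the 19S base, was higher by 0.23 ± 0.06 (edgeR adjusted p = 0.0173), with 234, 239 and 224 CPM in WT FAC against 195, 204 and 197 CPM in WT AC. Of the 7 assembly chaperones 3 were called higher (42.9%), where 8.7% of all tested genes were, and 2 lay below 0. None of these 3 calls held with each library left out in turn.

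The other genes called higher in WT were spread over the core and cap. The ATPase gene Psmc2 had a log2 fold change of 0.21 ± 0.06 (edgeR adjusted p = 0.0178) and Psmd1, the gene of a base scaffold, one of 0.18 ± 0.05 (edgeR adjusted p = 0.0223), with exons that overlap Gm21972 on the same strand. In the alpha ring Psma3 rose by 0.27 ± 0.07 (edgeR adjusted p = 0.0210) and Psma7 by 0.22 ± 0.07 (edgeR adjusted p = 0.0453). Psmb7 was the 1 catalytic gene called, at 0.20 ± 0.06 (edgeR adjusted p = 0.0397), and its exons overlap those of Nek6 on the opposite strand. For Psmb5 the value was 0.14 ± 0.07 (edgeR adjusted p = 0.235) and for Psmb6 0.04 ± 0.08 (edgeR adjusted p = 0.769). The ubiquitin receptor Psmd4 had 0.03 ± 0.07 (edgeR adjusted p = 0.827), the deubiquitinase Psmd14 0.18 ± 0.06 (edgeR adjusted p = 0.0623) and the chaperone Psmg1 0.06 ± 0.10 (edgeR adjusted p = 0.761).

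None of the activators was called in WT. Psme1 had a log2 fold change of -0.12 ± 0.07 (edgeR adjusted p = 0.238), Psme2 of -0.01 ± 0.08 (edgeR adjusted p = 0.951) and Psme4 of -0.11 ± 0.11 (edgeR adjusted p = 0.496). Psmc6 kept its call in all 25 alternative settings. The number called higher fell to 2 (4.44%) without WT AC 1, WT AC 3, WT FAC 4 or WT FAC 5. In each of these fits that share was below the share over all genes, which was 5.12% to 5.64%. For alternative fits, shares over all genes are counts per 12275, the number of genes tested in the main fit. The number tested in the alternative fit itself can differ. Without WT FAC 6 the number called higher was 4 (8.89%), against 5.82% of all genes. Without WT AC 2 it was 6 (13.3%), against 6.54%. With 1 library left out, the highest edgeR adjusted p was 0.0512 for Psmg4 and 0.164 for Psma7 (both without WT AC 1), 0.0782 for Psmd5 and 0.0804 for Psmc2 (both without WT FAC 5), and 0.0722 for Psma3, 0.1 for Psmd1, 0.115 for Psmg2 and 0.126 for Psmb7 (all without WT AC 3). With DESeq2 14 members were called higher (31.1%, against 9.75% of all genes) and with the WT libraries alone 16 (35.6%, against 12.8%). On the TPM scale 2 were higher (4.44%, against 4.71%) and 3 lower (6.67%, against 15.9%). That scale moved the median of all genes by -0.10 in WT and -0.15 in KO with FAC, and by -0.11 under AC and -0.17 under FAC for KO against WT. The median of the members stood 0.08 to 0.13 above that of all genes in every setting of the WT comparison.

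In KO cells members were called in both directions with FAC, at shares below those of all tested genes. The 3 members called lower were cap genes. Of 45 members 4 were called higher (8.89%), where 15% of all tested genes were, and 3 were called lower (6.67%), where 14.6% were. The median log2 fold change of the members was 0.08, against -0.00 over all tested genes. KO FAC libraries lay entirely above KO AC libraries for 12 members and entirely below for 6, where 19.7% and 19.1% of all tested genes did so. Of those 6, Psma8, Psmd3 and Psmg3 were not cap genes.

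Both genes of interferon-inducible PA28 were lower in KO with FAC. Psme1 had 99.8, 102 and 93.5 CPM in KO FAC, against 124, 115 and 118 CPM in KO AC. Psme2 had 157, 136 and 122 CPM in KO FAC, against 171, 171 and 173 CPM in KO AC. The groups did not overlap for either gene, and the spread of Psme2 was wide in KO FAC and narrow in KO AC. Their log2 fold changes were -0.27 ± 0.07 for Psme1 (edgeR adjusted p = 0.00733) and -0.31 ± 0.08 for Psme2 (edgeR adjusted p = 0.0110; SE, n = 3 each). These genes are neighbours (Psme1 at chr14:55578494-55581527 and Psme2 at chr14:55587440-55591101 in GRCm38.p6), and the exons of Psme1 overlap those of Emc9 on the other strand. Psme4, the PA200 gene, had 111, 133 and 136 CPM in KO FAC, against 171, 142 and 187 CPM in KO AC. Its groups did not overlap either, and it fell by 0.39 ± 0.11 on the log2 scale (edgeR adjusted p = 0.0140).

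The 4 members called higher in KO with FAC were core and base genes. Psmc4, an ATPase, had 177, 163 and 158 CPM in KO FAC, against 144, 142 and 135 CPM in KO AC, with no overlap (0.24 ± 0.07, edgeR adjusted p = 0.0188). Psmc2 was higher by 0.21 ± 0.06 (edgeR adjusted p = 0.0111), the alpha gene Psma2 by 0.21 ± 0.07 (edgeR adjusted p = 0.0280) and Psmd1 by 0.16 ± 0.05 (edgeR adjusted p = 0.0314). Psmc2 and Psmd1 were called higher with FAC in both genotypes. The catalytic genes had 0.18 ± 0.07 for Psmb5 (edgeR adjusted p = 0.0824), 0.08 ± 0.08 for Psmb6 (edgeR adjusted p = 0.520) and 0.06 ± 0.06 for Psmb7 (edgeR adjusted p = 0.531). Psmd14 had 0.13 ± 0.06 (edgeR adjusted p = 0.126), Psmd4 0.06 ± 0.07 (edgeR adjusted p = 0.540) and Psmg1 0.23 ± 0.11 (edgeR adjusted p = 0.110).

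Calls of Psme1, Psme2 and Psmc2 held with each library left out in turn, with a highest edgeR adjusted p of 0.0283, 0.0423 and 0.0395. Without KO AC 3 it was 0.0704 for Psme4, 0.0709 for Psmc4, 0.0886 for Psma2 and 0.0995 for Psmd1, and 1 member was called higher. The share higher in that fit was 2.22%, against 9.61% of all genes. Without KO AC 1 there were 11 higher (24.4%, against 16.8% of all genes) and 3 lower (6.67%, against 16.5%). Without KO AC 2 there were 2 higher (4.44%, against 11.3%). Without KO FAC 4 there were 2 higher (4.44%, against 15.5%) and 7 lower (15.6%, against 14.6%). Without KO AC 1 and KO FAC 6 there were 11 higher (24.4%, against 15.5%) and 3 lower (6.67%, against 15.1%). Without KO AC 1 and KO FAC 4 there were 10 higher (22.2%, against 20%) and 5 lower (11.1%, against 19%). Fitted without the WT libraries, the KO comparison had 0 members higher, against 9.02%, and 1 lower (2.27%, against 8.9%). The FPKM scale gave 0 higher, against 10.6%, and 8 lower (17.8%, against 20.6%). The TPM scale gave 0 higher, against 7.02%, and 19 lower (42.2%, against 31%). Once each library was centred on its median 10 were higher (22.2%) and 3 lower (6.67%), against 22.4% and 10.4% with FPKM. On the TPM scale Psmb7 was lower, at -0.14, and the value of Psmd1 was -0.03.

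**Figure D2:**
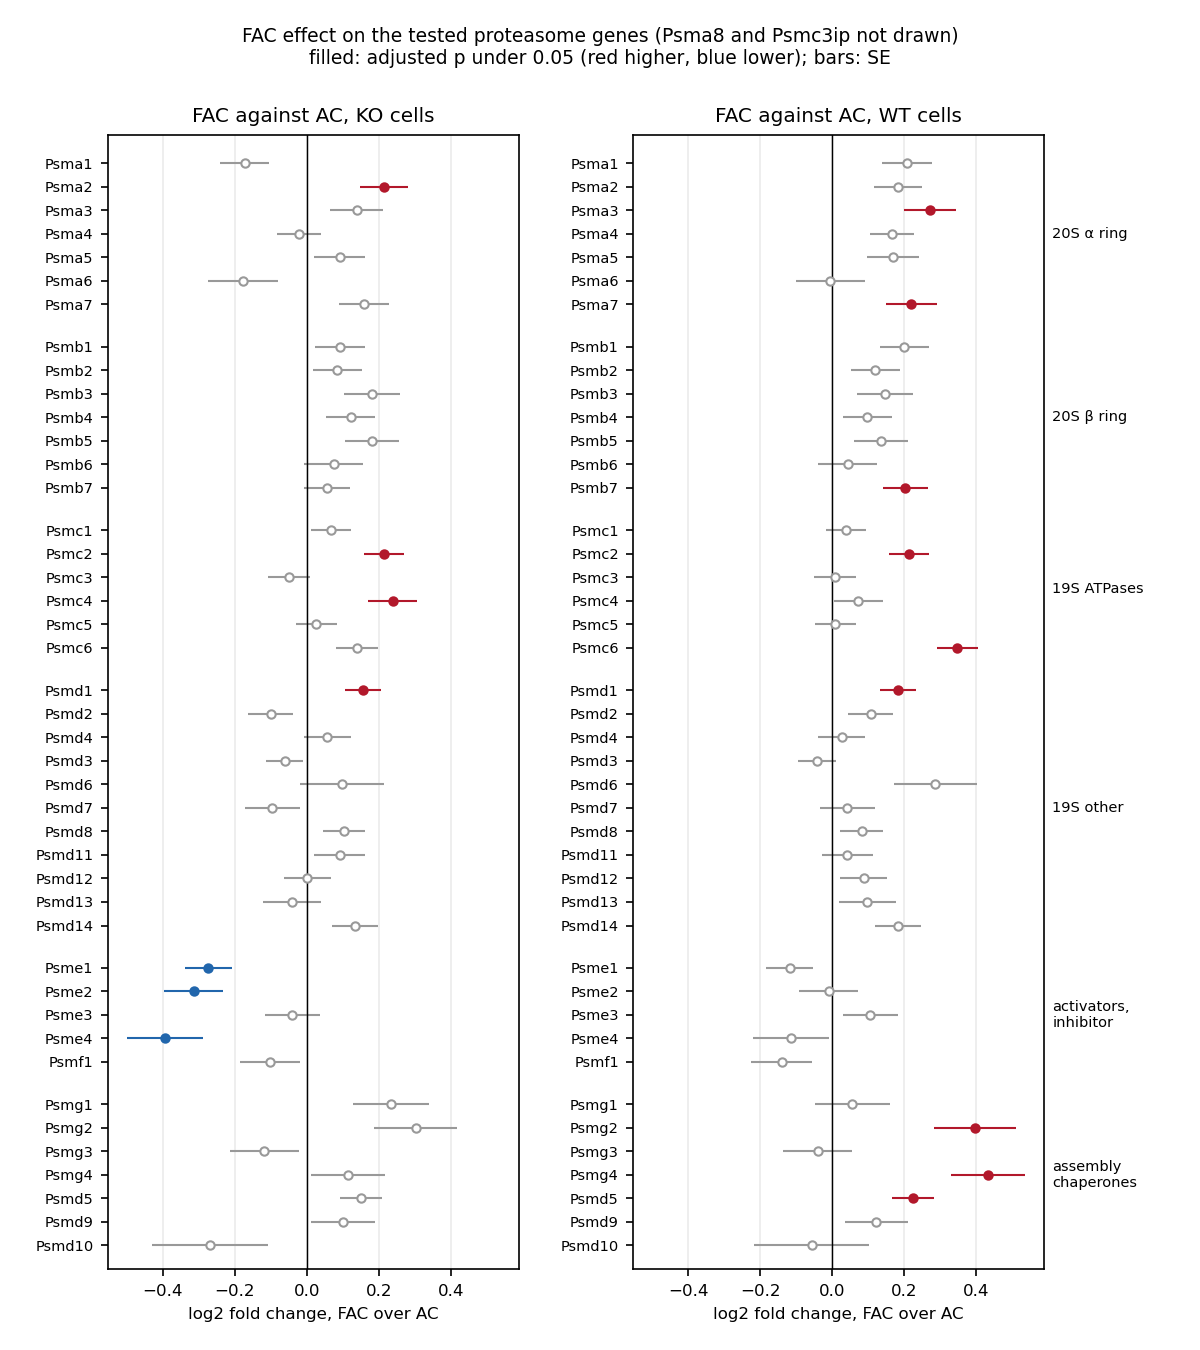
Log2 fold change of FAC over AC (x axis) for 43 tested members grouped by role, in KO cells (left) and WT cells (right), with SE bars from 3 libraries per group. Filled points passed an adjusted p of 0.05: in KO 4 were higher and the 3 lower ones were Psme1, Psme2 and Psme4, while in WT 9 were higher and 0 lower.

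Under AC the share of members higher in KO than in WT was close to that of all genes, and the share lower was below it. In all, 11 members were higher in KO (24.4%), where 21.7% of all tested genes were, and 1 was lower (2.22%), where 21.2% were. Without KO AC 2 the shares higher were 11.1% of members and 18% of all genes. The folds of the 11 were 1.12 to 1.28. The 19S non-ATPase genes made up 5 of them (Psmd8, Psmd3, Psmd4, Psmd11 and Psmd12, of 11 tested), and 3 were Psmf1, Psme1 and Psme2. KO AC libraries lay entirely above WT AC libraries for 14 members and entirely below for 6, where 26.5% and 26.4% of all tested genes did so.

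Psmd8 had 1436, 1372 and 1291 CPM in KO AC, against 1078, 1215 and 1168 CPM in WT AC (0.24 ± 0.06, edgeR adjusted p = 0.00516). Psmf1 had 49.2, 48.4 and 46.6 CPM in KO AC, against 34.8, 40.7 and 39.6 CPM in WT AC (0.33 ± 0.08, edgeR adjusted p = 0.00702). For both genes all KO AC libraries were above all WT AC libraries. Psme1 was higher by 0.25 ± 0.07 (edgeR adjusted p = 0.00846), with 124, 115 and 118 CPM in KO AC against 93.0, 104 and 104 CPM in WT AC, and Psme2 by 0.25 ± 0.08 (edgeR adjusted p = 0.0239). The same KO AC libraries are the ones below which both PA28 genes fell with FAC, so these results are not independent of each other. The lid gene Psmd3 was higher by 0.19 ± 0.05 (edgeR adjusted p = 0.00959) and the ubiquitin receptor Psmd4 by 0.23 ± 0.07 (edgeR adjusted p = 0.0133). The exons of Psmd3 overlap those of Gm12356 on the opposite strand.

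Further calls under AC were spread over several roles. Psma7 was higher by 0.26 ± 0.07 (edgeR adjusted p = 0.00982), Psmg4 by 0.35 ± 0.10 (edgeR adjusted p = 0.0148) and Psmc6 by 0.17 ± 0.06 (edgeR adjusted p = 0.0312). These 3 genes were also called higher with FAC in WT, and both comparisons use the WT AC libraries as their base. The lid genes Psmd11 (0.20 ± 0.07, edgeR adjusted p = 0.0362) and Psmd12 (0.18 ± 0.07, edgeR adjusted p = 0.0372) were higher as well. Psme4 was the 1 lower member, at -0.39 ± 0.11 (edgeR adjusted p = 0.0104), with 171, 142 and 187 CPM in KO AC against 243, 197 and 212 CPM in WT AC. The values were 0.00 ± 0.07 for Psmb5 (edgeR adjusted p = 0.985), -0.01 ± 0.08 for Psmb6 (edgeR adjusted p = 0.912) and 0.12 ± 0.06 for Psmb7 (edgeR adjusted p = 0.142). Psmd14 had -0.02 ± 0.06 (edgeR adjusted p = 0.847) and Psmg1 -0.27 ± 0.11 (edgeR adjusted p = 0.0524).

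Calls of Psmd8, Psmf1, Psmd3, Psme1 and Psma7 under AC held with each library left out. The highest edgeR adjusted p was 0.0528 for Psme4, 0.0614 for Psmg4 and 0.0822 for Psme2 (all without WT AC 1), 0.115 for Psmc6 (without WT AC 2), and 0.0613 for Psmd4, 0.126 for Psmd11 and 0.133 for Psmd12 (all without KO AC 2). Without KO AC 2 there were 5 higher (11.1%, against 18% of all genes) and 0 lower, against 16.1%. Without WT AC 3 there were 7 higher (15.6%, against 17.9%). Without KO AC 1 there were 8 higher (17.8%, against 21.4%) and 5 lower (11.1%, against 19.8%). The number lower was 2 (4.44%) without WT AC 1 or WT FAC 4, against 16.3% and 19.7%. It was 6 (13.3%) without KO AC 1 and either KO FAC 4 or KO FAC 6, against 22.4% and 21.5%. The FPKM scale gave 5 higher (11.1%, against 16.8%) and 8 lower (17.8%, against 27.6%). The TPM scale gave 3 higher (6.67%, against 14.9%) and 14 lower (31.1%, against 31.3%). Once centred on the library median 8 were higher (17.8%) and 6 lower (13.3%), against 19.6% and 22.2% with FPKM.

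Under FAC members differed between the genotypes in both directions, and the share called was below that of all genes in each. Of the 8 alpha ring genes Psma2 and Psma7 were higher in KO and Psma1, Psma4 and Psma8 lower. Of 45 members 8 were higher in KO (17.8%), where 24.6% of all tested genes were, and 8 were lower (17.8%), where 24.9% were. The median of the members was -0.03, against -0.01 over all tested genes. KO FAC libraries lay entirely above WT FAC libraries for 8 members and entirely below for 10, where 28.5% and 30.6% of all tested genes did so.

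Psme4 had the smallest p of the members under FAC. It had 111, 133 and 136 CPM in KO FAC, against 199, 196 and 207 CPM in WT FAC, and every KO FAC library was below every WT FAC library. It fell by 0.66 ± 0.11 on the log2 scale, a fold of 0.631 (edgeR adjusted p = 0.000200). Psma4 had 188, 188 and 175 CPM in KO FAC, against 230, 229 and 237 CPM in WT FAC (-0.33 ± 0.06, edgeR adjusted p = 0.000528). Psma1 had 157, 146 and 139 CPM in KO FAC, against 185, 180 and 176 CPM in WT FAC (-0.29 ± 0.07, edgeR adjusted p = 0.00311). These alpha ring genes did not overlap between the groups, and the exons of Psma4 overlap those of AY074887 on the other strand.

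Other members lower in KO under FAC were chaperone, base and lid genes and the germ cell gene Psma8. Psmd5 fell by 0.22 ± 0.06 (edgeR adjusted p = 0.00691), the lid gene Psmd6 by 0.39 ± 0.12 (edgeR adjusted p = 0.0135) and Psmd1 by 0.15 ± 0.05 (edgeR adjusted p = 0.0219). Psma8 fell by 0.98 ± 0.31 (edgeR adjusted p = 0.0181) at 0.488, 0.589 and 0.757 CPM in KO FAC against 1.24, 0.931 and 1.49 CPM in WT FAC. The lid gene Psmd13, whose exons overlap those of Sirt3 on the opposite strand, had -0.21 (edgeR adjusted p = 0.0464).

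Of the 8 genes higher in KO under FAC, 6 were also higher under AC, and the matching share of all tested genes was not computed. Psmd8 had 1477, 1525 and 1402 CPM in KO FAC, against 1215, 1237 and 1212 CPM in WT FAC (0.27 ± 0.06, edgeR adjusted p = 0.00234). Psmf1 had 47.6, 46.3 and 40.6 CPM in KO FAC, against 36.4, 35.0 and 33.0 CPM in WT FAC (0.36 ± 0.08, edgeR adjusted p = 0.00293). Psmd4 had 245, 224 and 212 CPM in KO FAC, against 192, 196 and 181 CPM in WT FAC (0.26 ± 0.07, edgeR adjusted p = 0.00518). KO FAC was above WT FAC in every library for these 3 genes. Psmd11 was higher by 0.25 ± 0.07 (edgeR adjusted p = 0.0102) and Psmd3 by 0.17 ± 0.05 (edgeR adjusted p = 0.0141). Psma7, the last of the 6, had 0.20 (edgeR adjusted p = 0.0320). Psmc4 had 0.20 (edgeR adjusted p = 0.0234) and Psma2 0.19 (edgeR adjusted p = 0.0317), and neither was called under AC.

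For Psmb5 the genotype difference under FAC was 0.05 ± 0.07 (edgeR adjusted p = 0.613), for Psmb6 0.02 ± 0.08 (edgeR adjusted p = 0.86) and for Psmb7 -0.03 ± 0.06 (edgeR adjusted p = 0.731). Psmd14 had -0.07 ± 0.06 (edgeR adjusted p = 0.404) and Psmg1 -0.09 ± 0.10 (edgeR adjusted p = 0.490). The PA28 genes, higher in KO under AC, had 0.09 ± 0.07 for Psme1 (edgeR adjusted p = 0.269) and -0.05 ± 0.08 for Psme2 (edgeR adjusted p = 0.603) under FAC. Across all 5 comparisons 20 members (44.4%) were called in none, where 30% of all tested genes were, and they included Psmb5, Psmb6, Psmd14 and the structural beta genes Psmb1 to Psmb4. A further 9 (20%) were called in 1, 13 (28.9%) in 2 and 3 (6.67%; Psma7, Psmd1 and Psme4) in 3 comparisons, where 21.2%, 31.6% and 11.3% of all tested genes were.

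Calls of Psme4, Psma4, Psma1, Psmd5, Psmd8, Psmf1 and Psmd4 under FAC held with each library left out. The highest edgeR adjusted p was 0.0549 for Psmd11, 0.0681 for Psmd3, 0.115 for Psmc4 and 0.0775 for Psma8 (all without WT FAC 6), 0.0551 for Psmd6, 0.115 for Psma2 and 0.152 for Psmd13 (all without KO FAC 4), 0.0717 for Psmd1 (without WT FAC 5) and 0.0938 for Psma7 (without WT FAC 4). The number higher was 3 without WT FAC 6 (6.67%, against 21.8% of all genes). It was 5 (11.1%) without WT FAC 5 or KO FAC 4, against 21.7% and 24.8%. The FPKM scale, which moved the median of all genes by -0.10, gave 2 higher (4.44%, against 18.7%) and 21 lower (46.7%, against 34.9%). The TPM scale gave 0 higher, against 15.8%, and 33 lower (73.3%, against 40.3%). TPM centred on the library median gave 5 higher (11.1%, against 25.5%) and 8 lower (17.8%, against 24%). On the TPM scale Psmb5 (-0.15) and Psmb6 (-0.18) were called lower, and Psmd3 (-0.03), Psma7 (-0.00) and Psma2 (-0.01) lay below 0.

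Markers of other cell types also differed between the genotypes. Summed FPKM of the stellate and fibroblast markers was 0.160 to 0.260 in KO FAC, 0.28 to 0.49 in KO AC, 1.83 to 2.38 in WT FAC and 2.58 to 3.32 in WT AC. The endothelial sum was 3 to 3.66 in KO FAC, 3.59 to 3.65 in KO AC, 6.11 to 7.80 in WT FAC and 4.04 to 5.44 in WT AC, with Clec4g at 0 in all groups but WT AC. Of the 6 endothelial genes tested, 4 were called lower in KO and 1 higher under each treatment. The higher one was Stab2, with log2 fold changes of 1.40 under FAC and 1.34 under AC. The cholangiocyte sum was 83.6 to 101 in KO FAC, 53.7 to 63.5 in KO AC, 258 to 296 in WT FAC and 308 to 314 in WT AC, with Krt7 at 0 in KO FAC. Spp1 carried most of that sum in WT (243 to 283 FPKM in WT FAC and 293 to 299.5 in WT AC), whereas Sox9, Krt19 and Epcam lay above 0 for KO over WT under both treatments, with Sox9 and Krt19 called higher under FAC. The macrophage sum, most of it Cd68, was 626 to 714 in KO FAC, 493 to 610 in KO AC, 599.6 to 647 in WT FAC and 336 to 394 in WT AC, while of the Kupffer cell genes Clec4f was at 0 in KO FAC and KO AC and Timd4 at 0 in KO FAC and WT FAC. Apart from Cd68, the macrophage genes tested had lower levels in KO. The log2 fold changes of Marco (-2.94 under FAC and -2.75 under AC) and Adgre1 (-2.72 under FAC and -2.76 under AC) were called, and those of Csf1r (-2.11 under FAC and -1.97 under AC) were not. The lymphocyte sum did not exceed 0.160 in any library. The part of these markers in the genotype and FAC results was not tested, and in bulk RNA fewer cells of a type and less RNA per cell cannot be told apart.

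**Figure D3:**
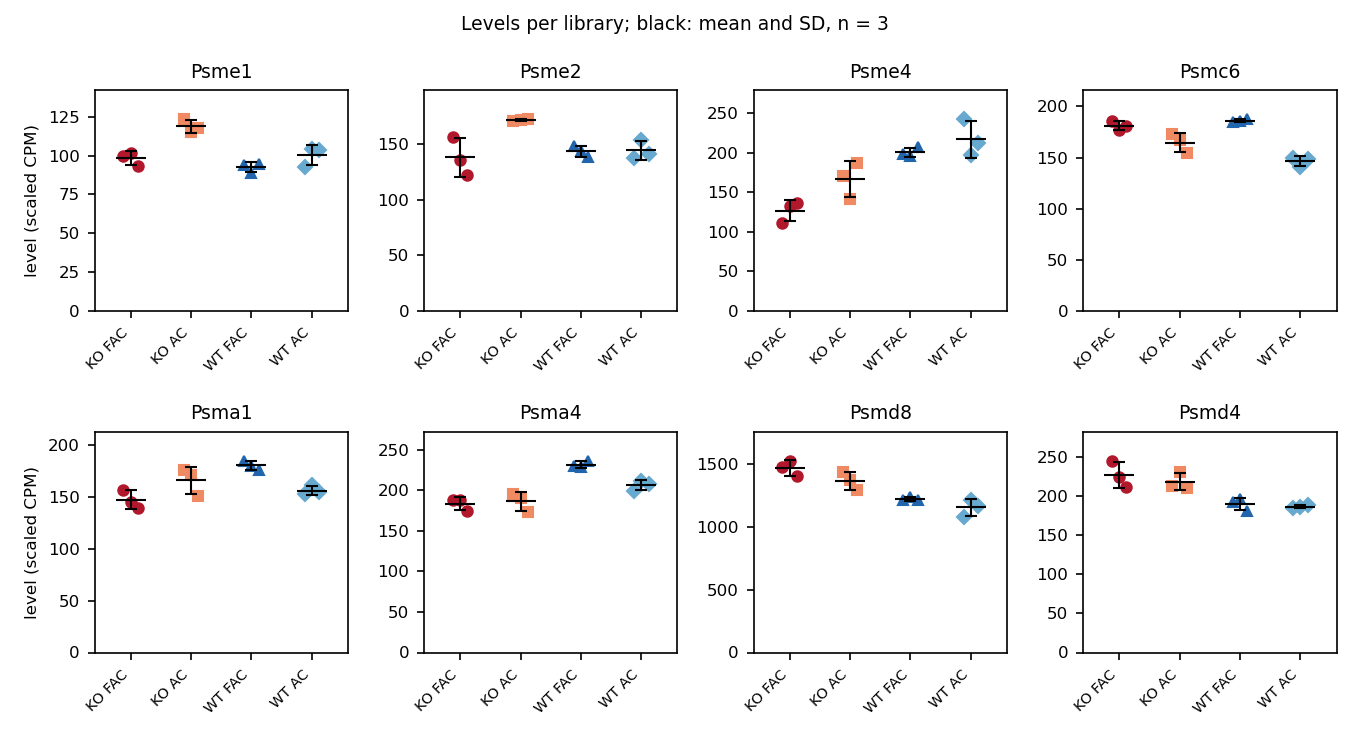
Scaled CPM per library (y axis, from 0) for 8 members in KO FAC, KO AC, WT FAC and WT AC, with the mean and SD of 3 libraries. Psme1 and Psme2 are highest in KO AC, Psme4 is lowest in KO FAC, and Psmd8 and Psmd4 are higher in both KO groups than in the WT group of the same treatment.

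The FAC effect was not called different between genotypes for any of the 45 members. With edgeR 0 were called in either direction, where 1.87% of all tested genes were called higher and 1.28% lower, and 7 members (15.6%) had an unadjusted p under 0.05, against 19.1% of all tested genes, all 7 with the lower FAC effect in KO. DESeq2 called 1 lower (2.22%, against 2.55% of all genes). Psma1 came closest, at -0.38 ± 0.10 for KO minus WT (edgeR adjusted p = 0.0510). It had 157, 146 and 139 CPM in KO FAC and 176, 171 and 151 in KO AC, with overlap, and 185, 180 and 176 CPM in WT FAC and 153, 161 and 155 in WT AC, without overlap. Psma8 had -1.55 ± 0.44 (edgeR adjusted p = 0.0713).

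For the caps the differences of the FAC effects were -0.16 ± 0.09 for Psme1 (edgeR adjusted p = 0.385), -0.30 ± 0.11 for Psme2 (edgeR adjusted p = 0.166) and -0.28 ± 0.15 for Psme4 (edgeR adjusted p = 0.334). The fall of these genes with FAC was called in KO and not in WT, but the difference itself did not pass. For the catalytic genes the differences were 0.05 ± 0.11 for Psmb5 (edgeR adjusted p = 0.855), 0.03 ± 0.12 for Psmb6 (edgeR adjusted p = 0.913) and -0.15 ± 0.09 for Psmb7 (edgeR adjusted p = 0.392). Psmd4 had 0.03 ± 0.09 (edgeR adjusted p = 0.894), Psmd14 -0.05 ± 0.09 (edgeR adjusted p = 0.818) and Psmg1 0.18 ± 0.15 (edgeR adjusted p = 0.55). Without KO FAC 4 there were 2 members lower (4.44%, against 2.28% of all genes), and without KO AC 3 there was 1 (2.22%, against 0.578%). Without KO AC 1 and KO FAC 4 there were 3 (6.67%, against 7.56%).

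The immunoproteasome genes, left out of the members by definition, replace the catalytic genes in the core when interferon induces them, so each was set beside its partner. Psmb8 was at 7.34% ± 0.403 of the FPKM of Psmb5 in KO FAC and 12.3% ± 1.48 in KO AC, against 7.75% ± 1.03 in WT FAC and 8.83% ± 0.348 in WT AC (SD, n = 3 each). Psmb10 was at 6.49% ± 0.578 of Psmb7 in KO FAC and 12% ± 0.623 in KO AC, against 6.48% ± 0.1 in WT FAC and 9.43% ± 0.272 in WT AC. Psmb9 was at 5.70% ± 1.015 of Psmb6 in KO FAC and 7.90% ± 1.43 in KO AC, against 4.87% ± 0.160 in WT FAC and 5.64% ± 0.205 in WT AC. KO AC thus had the highest ratio for each pair, without overlap with the other groups except for Psmb9, where it overlapped KO FAC. Psme1 and Psme2, the PA28 genes that interferon induces together with these 3, were also highest in KO AC.

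By edgeR, Psmb8 fell with FAC in KO by 0.55 ± 0.09 on the log2 scale (edgeR adjusted p = 0.000538) and Psmb10 by 0.81 ± 0.09 (edgeR adjusted p = 5.84e-05). In WT Psmb10 fell by 0.35 ± 0.09 (edgeR adjusted p = 0.0221). Under AC all 3 were higher in KO than in WT, by 0.47 ± 0.09 for Psmb8 (edgeR adjusted p = 0.000793), 0.46 ± 0.09 for Psmb10 (edgeR adjusted p = 0.00145) and 0.47 ± 0.15 for Psmb9 (edgeR adjusted p = 0.0213). Under FAC the values for KO over WT were -0.03 ± 0.09 for Psmb8 (edgeR adjusted p = 0.780), -0.01 ± 0.10 for Psmb10 (edgeR adjusted p = 0.95) and 0.29 ± 0.15 for Psmb9 (edgeR adjusted p = 0.135). With 1 library left out, the call of Psmb10 in WT ended without WT AC 2 (edgeR adjusted p = 0.0774) and that of Psmb9 under AC without WT AC 1 (0.0863).

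**Figure D4:**
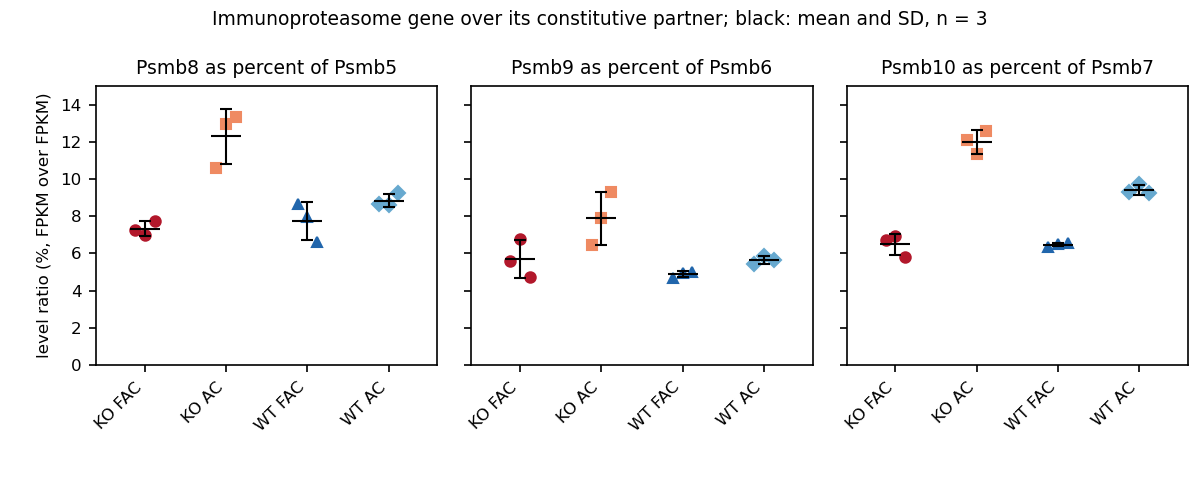
FPKM of each immunoproteasome gene as a percent of its constitutive partner (y axis, from 0), 1 point per library, with the mean and SD of 3 libraries, for KO FAC, KO AC, WT FAC and WT AC. KO AC has the highest mean for all 3 pairs, at 12.3%, 7.90% and 12%.

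Proteasome partners outside the symbol pattern moved in both directions. Of 16 such genes, FAC raised 6 and lowered 2 in KO and raised 1 in WT, and in KO against WT 5 were higher and 4 lower under FAC and 4 higher and 2 lower under AC. The shares of all tested genes were 15% higher and 14.6% lower with FAC in KO, 8.7% higher in WT, 24.6% higher and 24.9% lower under FAC, and 21.7% higher and 21.2% lower under AC, so several of these counts are near the background. Their median log2 fold change with FAC was 0.12 in KO and 0.11 in WT. Zfand2a, whose product binds the proteasome under arsenite stress, had 259, 244 and 306 CPM in KO FAC and 151, 192 and 175 in KO AC, against 220, 267 and 240 CPM in WT FAC and 124, 125 and 141 in WT AC. It rose with FAC without overlap in both genotypes, by 0.64 ± 0.11 in KO (edgeR adjusted p = 0.000822) and 0.90 ± 0.11 in WT (edgeR adjusted p = 0.000111). Adrm1, the gene of a 19S ubiquitin receptor, was higher in KO by 0.41 ± 0.06 under FAC (edgeR adjusted p = 6.10e-05) and 0.34 ± 0.06 under AC (edgeR adjusted p = 0.000436). Txnl1, a redox protein bound to the 19S, was higher in KO by 0.48 ± 0.06 under FAC (edgeR adjusted p = 1.55e-05) and 0.30 ± 0.06 under AC (edgeR adjusted p = 0.00106). Ube3c, a ubiquitin ligase at the proteasome, fell with FAC in KO by 0.36 ± 0.07 (edgeR adjusted p = 0.00308). For KO over WT under FAC Ube3c had -0.38 (edgeR adjusted p = 0.000804). Zfand2a was higher in KO under AC by 0.41 (edgeR adjusted p = 0.00759). With FAC in KO Ecpas had -0.29 (edgeR adjusted p = 0.0454, but 0.185 without KO AC 3).

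The list around Nfe2l1 and the unfoldase p97 held 10 genes. With FAC 5 of them fell in KO and 2 in WT, and in KO against WT 5 were lower under FAC and 5 higher under AC. Of all tested genes 14.6% fell with FAC in KO and 8.55% in WT, 24.9% were lower in KO under FAC and 21.7% higher under AC. Their median log2 fold change with FAC was -0.26 in KO and -0.06 in WT. Nfe2l1 itself, added to the named genes after its values were seen, had 203, 204 and 165 CPM in KO FAC and 204, 229 and 246 in KO AC, against 190, 190 and 191 CPM in WT FAC and 182, 185 and 178 in WT AC. It fell with FAC in KO by 0.25 ± 0.08 (edgeR adjusted p = 0.0397, but 0.154 without KO AC 3), although the groups overlapped, and in WT it had 0.07 ± 0.08 (edgeR adjusted p = 0.631). Under AC it was higher in KO by 0.32 ± 0.08 (edgeR adjusted p = 0.00861). Under FAC the value for KO over WT was -0.0013 (edgeR adjusted p = 0.992). Its fall with FAC in KO and its excess under AC both use the KO AC libraries, so these results are not independent of each other. The difference of its FAC effects was -0.32 ± 0.12 (edgeR adjusted p = 0.164).

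Ngly1, the gene of the glycanase that processes the Nfe2l1 product, had 18.5, 18.4 and 18.3 CPM in KO FAC and 25.2, 24.4 and 23.4 in KO AC, against 22.9, 21.7 and 23.5 CPM in WT FAC and 21.0, 19.6 and 20.5 in WT AC. It fell with FAC in KO by 0.40 ± 0.08 (edgeR adjusted p = 0.00179), while in WT, where it was not called, every FAC library lay above every AC library. Nfe2l2, the gene of the antioxidant regulator NRF2, fell with FAC by 0.83 ± 0.10 in KO (edgeR adjusted p = 9.86e-05) and by 0.33 ± 0.10 in WT (edgeR adjusted p = 0.0382, but 0.127 without WT FAC 5). Vcp, the p97 gene, fell by 0.20 ± 0.05 in WT (edgeR adjusted p = 0.0170, but 0.0752 without WT FAC 6). Syvn1, a ubiquitin ligase of the endoplasmic reticulum, fell with FAC in KO by 0.31 ± 0.07 (edgeR adjusted p = 0.00550). Nfe2l3 was barely expressed, with a mean of 0.219 FPKM. Under AC it was higher in KO by 1.44 (edgeR adjusted p = 0.00988). It had 1.26, 0.83 and 0.756 CPM in KO AC and 0.327, 0.487 and 0.219 CPM in WT AC. Nploc4 (0.38, edgeR adjusted p = 0.00222) and Syvn1 (0.32, edgeR adjusted p = 0.00240) were higher in KO under AC as well. Under FAC Nfe2l2 (-0.57, edgeR adjusted p = 0.000492) and Ngly1 (-0.30, edgeR adjusted p = 0.00519) were lower in KO. Ddi2 had -0.32 under FAC (edgeR adjusted p = 0.0401, but 0.152 without WT FAC 5).

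Of the ubiquitin and activating-enzyme genes, Uba1, the main ubiquitin-activating enzyme, was lower in KO by -0.31 ± 0.06 under FAC (edgeR adjusted p = 0.000895) and -0.42 ± 0.06 under AC (edgeR adjusted p = 0.000122). Uba6, the other activating enzyme, was also lower in KO, at -0.59 ± 0.16 under FAC (edgeR adjusted p = 0.00744) and -0.46 ± 0.16 under AC (edgeR adjusted p = 0.0297, but 0.162 without WT AC 1). The ubiquitin gene Rps27a rose with FAC in WT by 0.34 ± 0.08 (edgeR adjusted p = 0.0120, but 0.0529 without WT AC 1).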

How the data were processed

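RNA-seq of 12 libraries was analysed from the gene table deposited for the series, which gives per library the estimated counts, FPKM and TPM that the authors made with RSEM on mm10/GRCm38.p6, per the submitters' processing notes. The estimated counts were deposited without normalization. FPKM, per the file headers, is scaled by the authors for gene length and depth, and TPM, per the file headers, is scaled for gene length and to the same total in each library. The aligner, the annotation release and the strand setting are not given in the sources used here. A further 12 numeric columns of the table were not used. The 12 libraries fall into 4 groups of 3, taken from the labels. Estimated counts were rounded to whole numbers. Genes passing the filterByExpr function of edgeR at a minimum count of 10 were kept (12275 of 16728). Library sizes were scaled by TMM, and edgeR 4.0.16 in R 4.3.3 fitted a robust quasi-likelihood model with 1 term per group over all libraries. The 5 comparisons were FAC against AC in KO and in WT, KO against WT under FAC and under AC, and the difference of the FAC effects. Benjamini-Hochberg adjustment ran over all 12275 genes, and genes with an adjusted p under 0.05 were called. A standard error is the absolute log2 fold change divided by the square root of the F statistic. The biological coefficient of variation was 10.8%. An exact permutation test of 3 libraries against 3 cannot go below p = 0.1, so it was not used. Depth allows counting intervals only for counting error, and the text relies on the spread between libraries instead.

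Named genes are Psmb5, Psmb6, Psmb7, Psmd14, Psmd4, Psme1, Psme2, Psme4 and Psmg1 in every comparison, the 12 called members with the smallest p, the 3 with the smallest p where fewer than 3 were called, and up to 3 called genes with the largest fold from each other list. Nfe2l1 was added after its values were seen, as were Psmc4, Psma7, Psma2 and Psmd13 for KO against WT under FAC. The members and lists were chosen with earlier results of these data known. Promoters are from RefSeq tables of GRCm38.p6, matched by gene ID. The 26 alternatives covered scaling, filters, units and pseudocounts with limma 3.58.1, DESeq2 1.42.0, the samples fitted, a replicate block and libraries left out, and 2 of them (FPKM and TPM values centred on the library median) were chosen after seeing the data. Some genes of the ubiquitin list are not reported here. Figures were drawn with matplotlib 3.10.9.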

Additional observations from a re-analysis of the deposited data

Results flagged for a closer look

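The FAC effect was called different between KO and WT cells, by a test of the difference itself, for 2 genes related to the proteasome, neither of them a member. They were 1 of the 3 immunoproteasome genes and 1 of the 10 genes in the list around Nfe2l1. Both were called lower, as were 1.28% of all tested genes. Of the 16 partners outside the symbol pattern and the 4 ubiquitin and activating-enzyme genes, 0 were called. For Psmb8, an immunoproteasome gene, the difference of the log2 FAC effects (KO minus WT) was -0.50 ± 0.12 (SE; edgeR adjusted p = 0.0448). Psmb8 had 27.4, 27.9 and 27.4 CPM in KO FAC and 39.7, 40.5 and 41.3 in KO AC, against 31.4, 28.4 and 24.7 CPM in WT FAC and 28.4, 28.5 and 31.0 in WT AC. This call held in 12 of 25 alternatives, and without WT FAC 4 the edgeR adjusted p was 0.113. For Ngly1, whose product processes the Nfe2l1 protein, the difference was -0.56 ± 0.11 (edgeR adjusted p = 0.0170), and it held in 21 of 25 alternatives, with 0.0563 without WT AC 3. Its FAC libraries lay below its AC libraries in KO and above them in WT.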

How the results depend on the processing

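Counts of members called are given as higher and lower. With FAC in WT (9 and 0), log2(TPM + 1) gave 2 and 3, DESeq2 14 higher, the WT libraries alone 16, and omitting KO AC 1 with KO FAC 6 or KO FAC 4 gave 14 or 15 higher; with 1 library left out 2 to 12 were higher. With FAC in KO (4 and 3), log2(FPKM) with either pseudocount gave 0 and 8, TPM 0 and 19, both centred scales 10 higher, the KO libraries alone 0 and 1, and the same omissions 11 or 10 higher and, with KO FAC 4, 5 lower; with 1 left out 1 to 11 were higher and 3 to 7 lower. For KO against WT under AC (11 and 1), FPKM gave 5 and 8, TPM 3 and 14, the filter of FPKM 5 in 3 libraries 6 lower, both centred scales 6, DESeq2 3 and both omissions 6; with 1 left out 5 to 12 were higher and 0 to 5 lower. For KO against WT under FAC (8 and 8), FPKM gave 2 higher and 21 or 22 lower, TPM 0 and 33, and centred TPM 5 higher; with 1 left out 3 to 8 were higher. For the difference (0 and 0), the FPKM filter, both centred scales and DESeq2 gave 1 lower, FPKM 2, TPM 4 and the omissions 1 and 3; with 1 left out 0 to 2 were lower. Shares over all genes moved too. With 1 left out the share higher was 5.12% to 10.2% with FAC in WT and 9.61% to 16.8% in KO. For KO against WT it was 17.6% to 23.5% under AC and 21.4% to 26.1% under FAC. On the TPM scale 15.9% of all genes were lower with FAC in WT and 31% in KO. For KO against WT 31.3% were lower under AC and 40.3% under FAC on that scale. The cause was not tested.

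Reversed values were found on the log2(TPM + 1) scale only. With FAC in KO they were -0.14 for Psmb7 and -0.035 for Psmd1, and for KO against WT under FAC -0.15 for Psmb5, -0.18 for Psmb6, -0.027 for Psmd3, -0.0025 for Psma7 and -0.014 for Psma2. Of 3058 alternative values for named genes, 2610 kept direction and side of the threshold, 299 lost the call, 61 gained one, 7 reversed, and 81 changed sign but passed the threshold in neither fit. Same-numbered KO and WT libraries showed no pairing. Correlations of their deviations from the group means were -0.142 to 0.208, against -0.259 to 0.22 for other numbers. Pairing of AC with FAC libraries within a genotype was not examined. A fit with the replicate number as a block called 9 and 1 members under AC, where 19.7% and 18.4% of all genes were called. It called 7 and 6 under FAC (23.3% and 23.1%) and 0 and 0 for the difference (0.513% and 0.171%). Groups of 3, unknown strand counting and unstated separate animals limit all calls.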

Other observations

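A pair of genes matched by the symbol pattern entered no comparison. Psme2b, a gene with a name close to that of Psme2, had 0.1, 0.32 and 0.55 FPKM in KO FAC, 0.24, 0.37 and 0.09 in KO AC, 0.17, 0.73 and 0.47 in WT FAC and 0.95, 0.47 and 0.53 in WT AC. Psmb11, the beta subunit of thymic epithelium, was listed at 0 in 8 of 12 libraries and had 5 reads in all.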
